A study of Homo sapiens with 6 samples.

Results

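The clustered protocadherins are cell-adhesion proteins whose genes stand in 3 neighbouring groups, alpha, beta and gamma, on chromosome 5. The islands of H3K27me3 in that stretch were taken by position, on hg19, as every listed island that overlaps chr5:140160001-140900000, an interval of 740 kb. Within it the alpha cluster was taken as chr5:140160001-140395000 (235 kb), the beta cluster as chr5:140430001-140630000 (200 kb) and the gamma cluster as chr5:140710001-140895000 (185 kb). The rule found 10 islands, out of 71913 on the autosomes in the 3 lists together. Pfeiffer had 3, WSU-DLCL2 had 3 and KARPAS-422 had 4. An island is an interval in which the authors' peak caller found more H3K27me3 reads than input reads.

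H3K27me3, the repressive histone mark placed by the methyltransferase EZH2, had been mapped by immunoprecipitation of formaldehyde-fixed chromatin and sequencing in 3 lines of diffuse large B cell lymphoma (DLBCL). The lines carry the label EZH2 mutant, with no named mutation. Their labelled average gIC50, a measure of growth inhibition, was 28 nM for Pfeiffer, 134 nM for WSU-DLCL2 and 232 nM for KARPAS-422, for a compound the labels do not name. The mutant EZH2 is thus shared by all the lines described here, and no line with wild-type EZH2 was analysed here. The question was how the mark is spread over the genome where the response to GSK126, which inhibits EZH2, varies. With 1 H3K27me3 and 1 input library per line there are no replicates, and lines are compared by their values without a test. The autosomal islands held 16039824 to 17188115 H3K27me3 reads per line and 5694645 to 8800268 input reads. The lists hold neither transcripts nor a map of genes on hg19, so cell identity could not be checked against marker genes.

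Each protocadherin gene begins with a large variable exon that has its own promoter. In the alpha and gamma clusters these variable exons are spliced to a set of constant exons at the end of the cluster, while beta genes have no constant exons. Single neurons use different small sets of these genes, which gives the cells different surface identities, and the genes are best known from the nervous system. The last genes of the alpha and gamma clusters, the C-type genes, are used more uniformly than the others. Many of these promoters share a conserved element with a CGCT core, at which the looping factor CTCF can bind.

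The gene table used (RefSeq, GRCh38.p14) orders 53 protein-coding clustered protocadherins along the chromosome, 15 alpha, 16 beta and 22 gamma. The 35 genes described here are 14 alpha genes (PCDHA1 to PCDHA8, PCDHA10 to PCDHA13, PCDHAC1 and PCDHAC2), 13 beta genes (PCDHB2 to PCDHB8 and PCDHB10 to PCDHB15) and 8 gamma genes (PCDHGA1 to PCDHGA3, PCDHGB1, PCDHGB2, PCDHGC3, PCDHGC4 and PCDHGC5). In that order the series begins after ZMAT2 with PCDHA1. It passes SLC25A2 and TAF7 between the beta and the gamma genes and ends with PCDHGC3, PCDHGC4 and PCDHGC5 before DIAPH1. The table's build differs from that of the islands, so islands are given by cluster and position and were not assigned to single genes.

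The promoters are shown because of the conserved element that many of these genes share. RefSeq promoter entries (GRCh38.p14, 250 bases before to 50 after a gene's start) were found for 30 of the 35 genes, 12 alpha, 11 beta and 7 gamma. PCDHA3, PCDHA13, PCDHB6, PCDHB11 and PCDHGC5 had no entry. The stretches below are the first, the second and the last gene with an entry in each cluster, and PCDHGC3. They are written 5′ to 3′ on the plus strand, all before the gene's start, with the CGCT taken as the core in capitals. This was the CGCT within the cluster's motif given below, or, where that motif was absent, the first CGCTGT or CGCT. A CGCT in capitals does not by itself show that a promoter has the conserved element. Their coordinates are those of GRCh38.p14 and cannot be set beside the hg19 positions of the islands.
PCDHA1, chr5:140786078-140786129: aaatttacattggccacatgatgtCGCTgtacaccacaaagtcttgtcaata
PCDHA2, chr5:140794773-140794824: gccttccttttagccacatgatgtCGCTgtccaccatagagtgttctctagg
PCDHAC2, chr5:140966357-140966408: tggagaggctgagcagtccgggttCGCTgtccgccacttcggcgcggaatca
PCDHB2, chr5:141094536-141094587: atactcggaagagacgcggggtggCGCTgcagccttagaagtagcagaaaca
PCDHB3, chr5:141100385-141100436: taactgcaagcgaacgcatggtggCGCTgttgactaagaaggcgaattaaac
PCDHB15, chr5:141245306-141245357: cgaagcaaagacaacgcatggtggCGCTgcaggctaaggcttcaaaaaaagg
PCDHGA1, chr5:141330395-141330446: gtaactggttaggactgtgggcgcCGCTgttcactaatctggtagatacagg
PCDHGA2, chr5:141338695-141338746: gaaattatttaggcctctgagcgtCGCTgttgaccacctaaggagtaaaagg
PCDHGC3, chr5:141475872-141475923: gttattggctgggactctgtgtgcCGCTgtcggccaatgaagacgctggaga
PCDHGC4, chr5:141484944-141484995: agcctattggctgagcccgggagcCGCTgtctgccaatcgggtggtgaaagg

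The bases next to the core differed in part by cluster. Motifs were searched on both strands and picked after the sequences had been seen. CGCT was present in 30 of 30 genes, but so short a motif was also present in 71.9% of the 27305 genes with an entry. GATGTCGCT was found in 9 of 12 alpha genes and in none of the 18 other genes, against 0.128% of all genes. GGTGGCGCT was found in 11 of 11 beta genes and in none of the 19 others, against 0.619% of all genes. GNGNCGCTGT, in which N is any base, was built from the letters shared by PCDHGA1, PCDHGA2, PCDHGC3 and PCDHGC4, so these match by construction. It was found in 7 of 7 gamma genes, these included, and in 1 beta gene, PCDHB3, against 1.82% of all genes. The bases before the core did not set gamma apart from beta, since GNGN also fits the beta motif. CGCTGT was found in 7 of 12 alpha, 1 of 11 beta and 7 of 7 gamma genes, against 13.3% of all genes. All of these contain CGCT, so the motifs overlap. In 29 of the 30 genes the core lay before the start, 11 to 199 bases away with a median of 58.

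The C-type promoters stood apart from the others in base composition. PCDHAC1, PCDHAC2, PCDHGC3 and PCDHGC4 held 27, 15, 18 and 23 CpG dinucleotides in 300 bases and 59.0% to 66.0% G and C. The other 26 genes held 3 to 12 CpG dinucleotides, with a median of 7, and 33.3% to 51.3% G and C. The ranges of the C-type and the other promoters did not overlap in either measure. Over all genes with an entry the medians were 14 CpG dinucleotides and 58.3% G and C. Most of the 30 genes were thus poor in CpG and the C-type genes were not. The rest of the 53 clustered protocadherins were not examined.

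**Figure D1:**
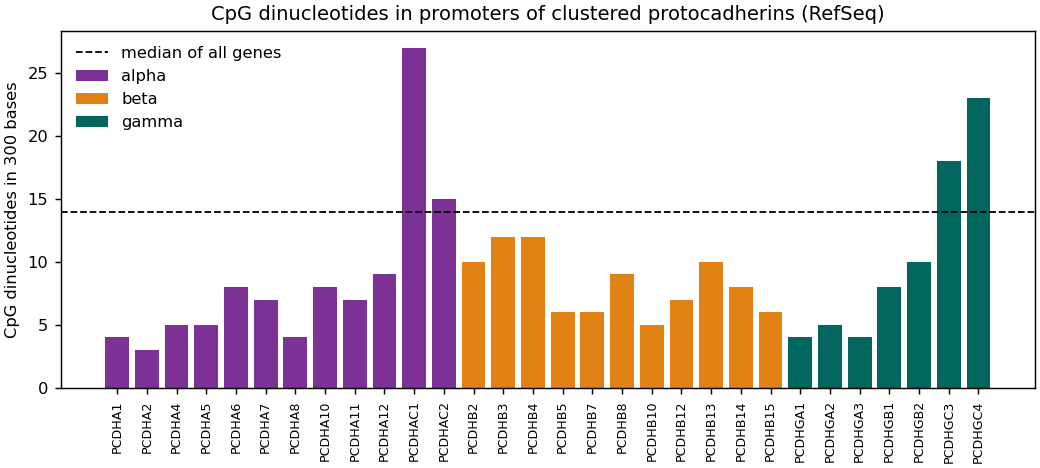
CpG dinucleotides (vertical axis, number in 300 bases) in the RefSeq promoter of the 30 of the 35 genes described here with an entry, in chromosome order, coloured by cluster. The median of all genes (14) is a dashed line. The 4 C-type genes lie above the line at 15 to 27, and all 26 others lie below it.

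The protocadherin clusters were covered less than the chromosome on either side taken as a whole, but the sequence next to them was also sparsely covered. Islands of Pfeiffer covered 10.0% of the 740 kb (74.25 kb), those of WSU-DLCL2 3.95% (29.25 kb) and those of KARPAS-422 9.43% (69.75 kb). The flanks, chr5:139000001-140160000 and chr5:140900001-142000000, were covered to 69.5%, 57.9% and 57.6%. They were barer close to the interval. From 140000001 to 140100000 the shares were 19.0%, 13.75% and 9.75%, and from 140900001 to 141000000 they were 20.25%, 21.0% and 0%. The low coverage thus did not end at the bounds of the interval. Against the autosomes the contrast of the interval was smaller, since islands covered 25.6%, 24.8% and 24.7% of the windows of 750 bases in the same order. Many stretches of the genome were as bare: of 3054 consecutive tiles of 740 kb with an island in any line, 27.5%, 16.9% and 26.2% had a share as low in the respective line. The medians of these tiles were 28.9%, 29.5% and 27.5%.

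**Figure D2:**
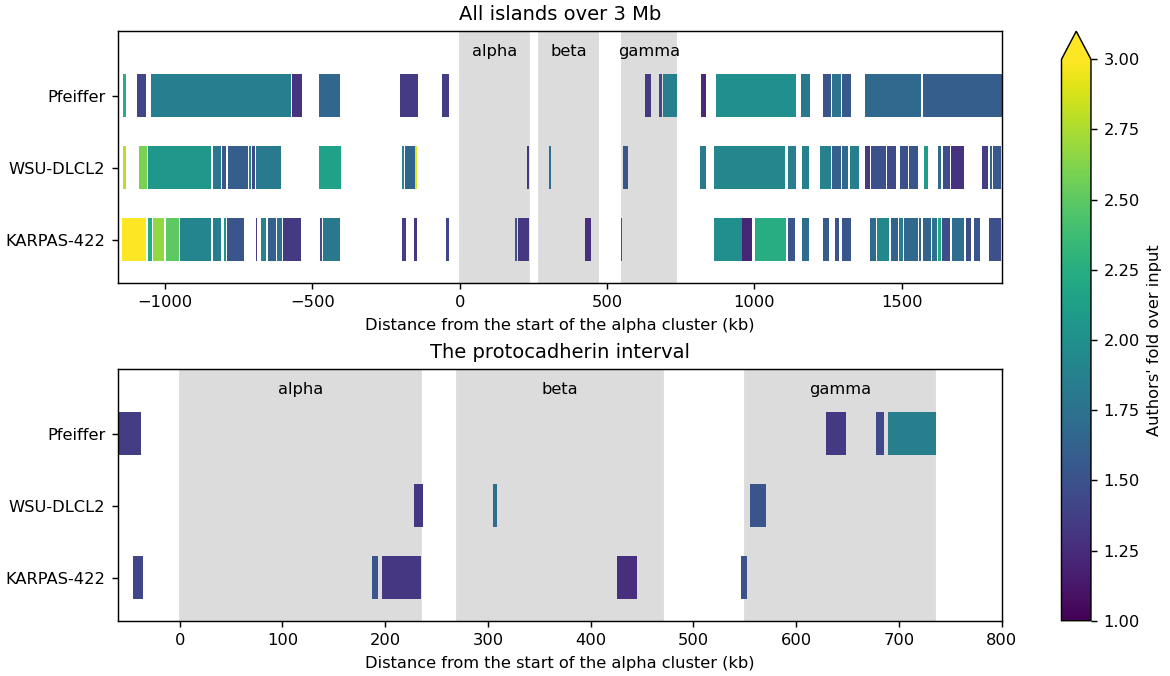
H3K27me3 islands in Pfeiffer, WSU-DLCL2 and KARPAS-422 (rows) by distance from the start of the alpha cluster in kb, over 3 Mb (top) and over the protocadherin interval (bottom), coloured by the authors' fold over input, with the 3 clusters in grey. Long and short islands cover 57.6% to 69.5% of the flanks, with bare stretches between them, while the interval holds 3, 3 and 4 islands in the 3 lines.

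The clusters differed in which line carried the mark. The alpha cluster was covered to 19.1% in KARPAS-422 (45 kb), 2.98% in WSU-DLCL2 (7 kb) and 0% in Pfeiffer. The beta cluster was covered to 9.38% in KARPAS-422 (18.75 kb), 2.25% in WSU-DLCL2 (4.5 kb) and 0% in Pfeiffer. The gamma cluster turned this order around, with 39.3% in Pfeiffer (72.75 kb), 8.51% in WSU-DLCL2 (15.75 kb) and 1.08% in KARPAS-422 (2 kb). WSU-DLCL2 was between the other lines in all 3 clusters and had under 10% in each. Gamma in Pfeiffer was the only one of the 9 values above that line's autosomal share. With islands at a false discovery rate of 1e-10 or less alone, gamma in Pfeiffer was covered to 24.7%, and the small shares of alpha and beta in WSU-DLCL2, beta in KARPAS-422 and gamma in KARPAS-422 went to 0%. A stretch without an island may still hold the mark below what the caller detects. How reads matching several of these similar exons were counted is not known here, and their part in the bare stretches was not tested.

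**Figure D3:**
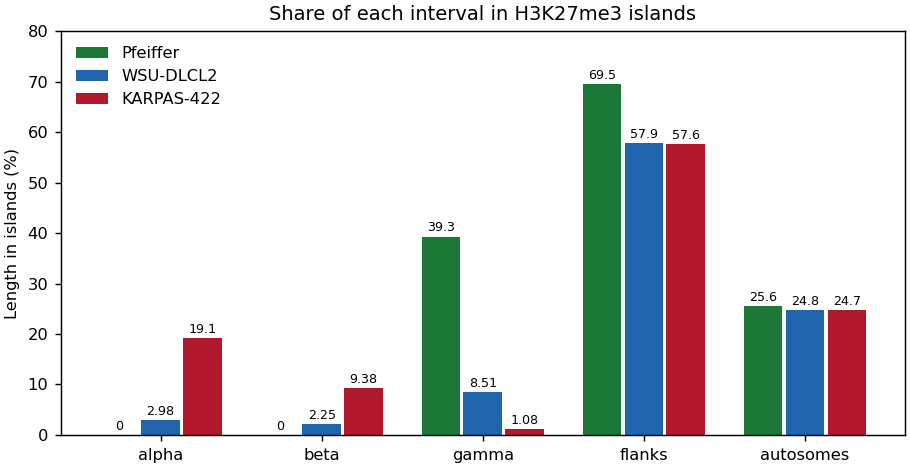
Length in H3K27me3 islands (vertical axis, percent) for the alpha, beta and gamma clusters, the flanks and all autosomes, with 1 bar per line and 1 library behind each bar. Shares in the clusters run from 0% to 39.3%, all below the 57.6% to 69.5% of the flanks.

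No base of the interval was covered in all 3 lines. Over the 740 kb, 77.5% lay in no line's islands, 21.6% in islands of 1 line, 0.912% in islands of 2 lines and 0% in islands of 3 lines. Over the autosomes the corresponding shares of windows were 64.1%, 11.4%, 9.71% and 14.8%. In the flanks they were 25.6%, 9.60%, 19.1% and 45.8%. The interval therefore held the mark mainly in islands of single lines, while the flanks held it mainly in islands common to all 3. The length found in Pfeiffer only was 74.25 kb, in KARPAS-422 only 63 kb and in WSU-DLCL2 only 22.5 kb. Of the autosomal windows, 4.0%, 3.9% and 3.49% were covered in these lines only.

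The beta cluster was the barest of the 3. Of its length 88.4% was free of islands in all 3 lines, against 80.7% for the alpha cluster and 51.1% for the gamma cluster. Its islands in WSU-DLCL2 and KARPAS-422 did not meet. The only bases covered by 2 lines were 6.75 kb at the end of the alpha cluster, chr5:140388001-140394750 in WSU-DLCL2 and KARPAS-422. At the start of the gamma cluster the islands of these same lines lay 3 kb apart without overlap.

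In the alpha cluster both islands of KARPAS-422 and the island of WSU-DLCL2 lay at the distal end. KARPAS-422 had an island of 38.25 kb at chr5:140356501-140394750, with 675 H3K27me3 and 312 input reads. The authors' fold over input was 1.31 for it (95% interval 1.15 to 1.51), higher than only 9.34% of the folds in that list. A shorter island of 6.75 kb stood before it, at chr5:140346751-140353500, with 141 and 56 reads and a fold of 1.53 (1.12 to 2.12). A break of 3 kb separated them, the shortest that the caller leaves in this list. WSU-DLCL2 had 9 kb at chr5:140388001-140397000, with 154 and 92 reads and a fold of 1.32 (1.01 to 1.73). It ran 2 kb past the bound of the cluster. All of these folds were below the median of their list, 1.54 for WSU-DLCL2 and 1.61 for KARPAS-422. Only the interval of the island of 38.25 kb lay wholly below it, and those of the islands of 6.75 and 9 kb held it. In gene order the end of the alpha cluster holds the C-type genes PCDHAC1 and PCDHAC2 and the constant exons, but whether the islands cover them was not determined.

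The first 186.75 kb of the alpha cluster held no island in any line. In the table's order the variable genes from PCDHA1 onward fill this side of the cluster. The free stretch reached from chr5:140124751 to 140346750, 222 kb in all. Of the 24962 stretches of the autosomes without an island in any line, 4.52% were at least as long, and the median was 12 kb.

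The beta cluster held 1 island in KARPAS-422 and 1 in WSU-DLCL2, far from each other. That of KARPAS-422, at chr5:140586001-140604750 (18.75 kb), had 275 H3K27me3 and 132 input reads and a fold of 1.27 (1.03 to 1.57). This was the lowest fold of the 10 islands, higher than 4.64% of the folds of its list. That of WSU-DLCL2, at chr5:140464501-140469000, was 4.5 kb long, shorter than all but 2.80% of the islands of its list. It held 97 and 45 reads and had a fold of 1.70 (1.18 to 2.48), an interval that holds the list's median of 1.54. Free stretches common to the 3 lines took 34.5 kb at the start of the beta cluster, 117 kb in its middle and 25.25 kb at its end.

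The gamma cluster carried the strongest island of the interval, in Pfeiffer. It spanned 47.25 kb at chr5:140849251-140896500, at the distal end of the cluster, and held 1669 H3K27me3 and 774 input reads. Its fold was 1.86 (1.70 to 2.02), higher than 81.1% of the folds in the list of Pfeiffer, and its interval lay above the list's median of 1.58. It was also among the longer islands of Pfeiffer, longer than 81.5% of them. Before it stood 8.25 kb at chr5:140837251-140845500 with a fold of 1.43 (1.09 to 1.89; 143 and 86 reads) and 18.75 kb at chr5:140789251-140808000 with a fold of 1.34 (1.15 to 1.55; 456 and 294 reads). The nearest island of another line was 80.25 kb from the long island in WSU-DLCL2 and 128.25 kb in KARPAS-422. In gene order this end of the cluster holds PCDHGC3, PCDHGC4 and PCDHGC5 and the constant exons, and again no gene was placed on the islands.

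At the proximal end of the gamma cluster the other 2 lines had short islands. WSU-DLCL2 had 15.75 kb at chr5:140715001-140730750, with 301 and 156 reads and a fold of 1.52 (1.25 to 1.86). KARPAS-422 had 6 kb at chr5:140706001-140712000, with 119 and 48 reads and a fold of 1.51 (1.07 to 2.15), of which only 2 kb lay within the cluster. WSU-DLCL2 had no island in the 5 kb before its island or in the 164.25 kb after it, and KARPAS-422 had none in the remaining 183 kb.

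Input reads, the background of the same cells, differed at this place between the lines. Relative to the pooled density of the whole list, input in the islands of the interval was 1.30 for Pfeiffer, 0.869 for WSU-DLCL2 and 0.982 for KARPAS-422. In the flanks it was 1.39, 0.982 and 0.966. Pfeiffer thus had raised input in its islands here and in the flanks, in the line with the largest share of gamma and of the flanks in islands. The alpha and beta clusters of Pfeiffer, which hold no island, gave no input value of their own. The part of input in these differences was not tested.

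Read density followed the same picture. The islands of the interval held 30.5, 18.9 and 17.3 H3K27me3 reads per kb in the order of the lines. Relative to each list's pooled density these were 1.32, 0.783 and 0.770, against 1.45, 1.10 and 1.05 in the flanks. By cluster the relative densities were 1.32 for gamma in Pfeiffer, 0.710, 0.895 and 0.793 for alpha, beta and gamma in WSU-DLCL2, and 0.805, 0.651 and 0.880 in KARPAS-422. Pooled over a line, the islands of the interval were thus sparser in reads than those of the flanks. These densities are not corrected for input. Relative input was also lower than in the flanks in Pfeiffer (1.30 against 1.39) and WSU-DLCL2 (0.869 against 0.982), but not in KARPAS-422 (0.982 against 0.966).

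Within a line the clusters could be compared by fold, since depth and scaling are shared. Pooled over its islands, gamma in Pfeiffer had a fold of 1.69 (1.57 to 1.82), and the flanks 1.74 (1.71 to 1.77). Their ratio was 0.971 (0.902 to 1.04), within counting error of 1. Against flanks taken over 7 Mb in place of 3 Mb the ratio was 1.08 (1.00 to 1.16), on the other side of 1, so its direction depended on the flanks chosen. In KARPAS-422 alpha had 1.35 (1.19 to 1.53) and beta 1.27 (1.03 to 1.57), against 1.86 (1.82 to 1.90) in the flanks. The ratios to the flanks were 0.725 (0.640 to 0.821) for alpha and 0.681 (0.553 to 0.839) for beta, both below 1 beyond counting error, and they stayed so against the wider flanks, at 0.800 (0.706 to 0.905) and 0.751 (0.610 to 0.925). Alpha and beta did not differ from each other beyond it, at a ratio of 1.06 (0.836 to 1.35). Gamma in KARPAS-422 rested on 2 kb, and its ratio of 0.810 (0.453 to 1.45) spans values below and above 1.

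In WSU-DLCL2 the ratios to the flanks were 0.714 (0.533 to 0.958) for alpha, 0.920 (0.646 to 1.31) for beta and 0.823 (0.678 to 1.00) for gamma. The interval of alpha lay below 1, that of gamma ended just below it, at 0.9999, and that of beta held it. Against the wider flanks all 3 intervals held 1, at 0.777 (0.580 to 1.04), 1.00 (0.703 to 1.43) and 0.896 (0.738 to 1.09) for alpha, beta and gamma. In WSU-DLCL2 no difference in fold thus stayed beyond counting error whichever flanks were taken. Intervals this wide do not show that the folds were equal. The 3 clusters did not differ from each other beyond counting error, with ratios of 0.777 (0.491 to 1.23) for alpha over beta, 0.868 (0.611 to 1.23) for alpha over gamma and 1.12 (0.747 to 1.67) for beta over gamma. All intervals here reflect counting alone, since 1 library per line gives no spread between cultures. Reads copied by PCR are not separate molecules, so any copies among the counts would make these intervals too narrow.

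None of the 10 islands reached a fold of 2, which 10.5%, 11.3% and 19.6% of the autosomal islands of the 3 lines reached. By length, such islands covered 0% of the clusters and 3.62%, 3.41% and 6.21% of the autosomal windows. They covered 0.398%, 15.2% and 13.4% of the flanks, so at this fold Pfeiffer showed almost no difference between clusters and flanks. The flank islands ran from 1.23 to 2.26 in Pfeiffer (median of 15 islands 1.59), from 1.30 to 2.93 in WSU-DLCL2 (33 islands, 1.70) and from 1.21 to 3.37 in KARPAS-422 (40 islands, 1.65). The folds of the protocadherin islands all fell inside these ranges. A count of 0 among 3, 3 and 4 islands is close to these backgrounds.

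**Figure D4:**
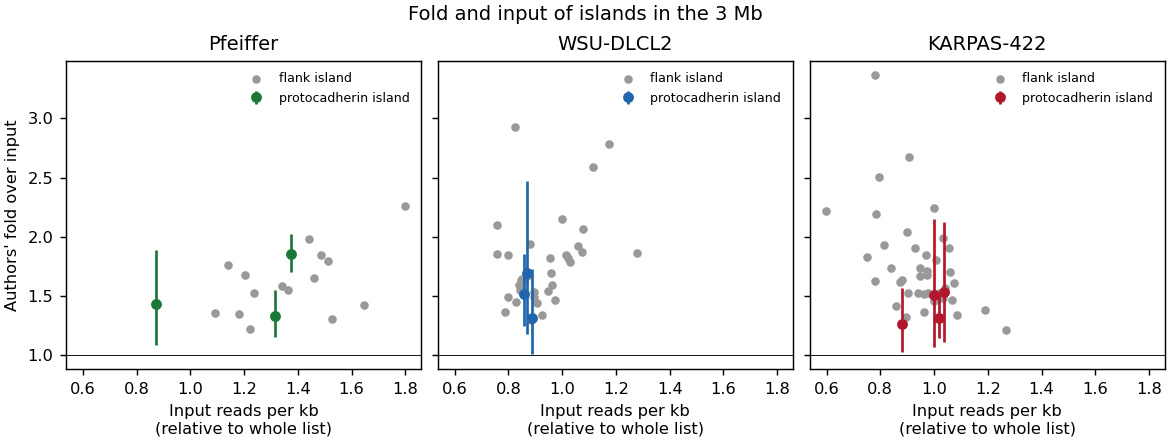
Authors' fold over input (vertical axis) against input reads per kb relative to the whole list (horizontal axis) for flank islands (grey) and the 10 protocadherin islands (coloured, with 95% counting intervals), 1 panel per line. The long gamma island of Pfeiffer stands at a fold of 1.86 and an input of 1.37, and the other 9 islands stand at folds of 1.27 to 1.70.

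Cut to the interval, the longest breaks exceeded those of the flanks in Pfeiffer and WSU-DLCL2, but not all breaks were long. The longest was then 629.25, 246 and 191.25 kb in the order of the lines, against 201, 209.25 and 213 kb in the flanks. In Pfeiffer 1 stretch without an island, chr5:140122501-140789250, took in the whole alpha and beta clusters and the first 79.25 kb of gamma. It was 666.75 kb long, and 2.17% of the 21236 stretches in the list of Pfeiffer were at least as long. The 3 islands of Pfeiffer lay only 29.25 and 3.75 kb apart, and a stretch of 81 kb followed them. In WSU-DLCL2 the stretches reaching into the interval were of 371.25, 67.5, 246 and 246 kb. In KARPAS-422 they were of 222, 3, 191.25, 101.25 and 312.75 kb, so uncut the longest exceeded the 213 kb of its flanks as well. The median over each whole list was 12.75, 13.5 and 11.25 kb in the order of the lines. Cut to the interval, the median stretch was 16.5 kb in Pfeiffer, below the 35.6 kb of its flanks. This median counts only the start of the stretch of 81 kb, most of which lies past the interval. Uncut, the stretches of 666.75 and 81 kb were above 35.6 kb and those of 29.25 and 3.75 kb below it, so this comparison depends on the cut. The median of the cut stretches was 198.6 kb in WSU-DLCL2 and 186.75 kb in KARPAS-422, above the 6 and 6.75 kb of their flanks.

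Pfeiffer had 1 in alpha, 1 in beta and 3 in gamma, WSU-DLCL2 had 1, 2 and 2, and KARPAS-422 had 3, 2 and 1. A cluster without any island counts here as 1 break over its whole length. Per Mb these were 4.26, 5 and 16.2 in Pfeiffer, against 7.08 in its flanks. The value of gamma rests on 3 breaks in 185 kb, of which 1 is the end of the stretch of 666.75 kb and 1 is 3.75 kb long. At a false discovery rate of 1e-10 or less gamma had 1 break. Counts per Mb in such short intervals are raised by their bounds, since a cluster without islands still counts 1 break. WSU-DLCL2 had 4.26, 10 and 10.8 per Mb against 15.5, and KARPAS-422 had 12.8, 10 and 5.41 against 18.6. The breaks of the clusters ran from 0.25 to 235 kb.

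The distance to the nearest island outside the interval differed by line. On the side of the alpha cluster the last island before the interval ended 37.5 kb away in Pfeiffer (fold 1.36), 143.25 kb in WSU-DLCL2 (fold 2.93) and 35.25 kb in KARPAS-422 (fold 1.42). On the side of the gamma cluster the next island began 77.5 kb away in Pfeiffer (fold 1.23), 76.75 kb in WSU-DLCL2 (fold 1.82) and 124.75 kb in KARPAS-422 (fold 1.99). From chr5:141000001 to 141100000 islands covered 68.5%, 76.0% and 75.25% of the sequence in the 3 lines, and from 141100001 to 141200000 they covered 100%, 100% and 87.25%. In Pfeiffer the mark began earlier, with 63.5% from 140800001 to 140900000, and dropped to 20.25% in the next 100 kb. WSU-DLCL2 and KARPAS-422 had 0% in the former step, and 21.0% and 0% in the latter. On the alpha side 44.0%, 31.25% and 10.5% were covered from 139900001 to 140000000 and 19.0%, 13.75% and 9.75% in the next 100 kb. From 140100001 to 140200000, a step that reaches into the alpha cluster, the shares were 22.5%, 0% and 9.75%. The flanks had a bare stretch of their own, from 139800001 to 139900000, with 0% in all 3 lines.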

How the data were processed

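Per the submitters' processing notes, Bowtie, SICER and the build hg19 were used, without versions. File names of the deposited lists carry the settings, read here as a SICER window of 750 bases with a gap of 2250 and a false discovery rate of 0.001. How multiply matching reads were treated is not given in the sources used here. The deposited columns hold, for every island, counts of H3K27me3 and of input reads, p-values with false discovery rates, and a fold, the ratio of both counts after the authors scaled the libraries. The scaling recovered from the files was 1.16, 1.27 and 1.65 (Pfeiffer, WSU-DLCL2, KARPAS-422). Depth outside islands is unknown.

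Chromosomes X and Y were left out. Positions are printed counted from 1. Islands were cut to a cluster's bounds, with reads in proportion to the length kept. Intervals of folds are exact (Clopper-Pearson) at 95%, and those of ratios of folds are log-normal, and both were checked on simulated counts. The bounds, the genes and the lists were chosen with earlier results of these data known, and all 10 islands are named. No hg19 annotation was used, so the planned values for non-clustered protocadherins were not computed. Also tried were islands at a false discovery rate up to 1e-10, a minimum fold of 2, islands under 5 kb apart joined, bounds extended by 10 kb, wider flanks and whole islands. Software was Python 3.11.15 with numpy 2.4.6, pandas 2.3.3, scipy 1.17.1 and matplotlib 3.10.9.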

Additional observations from a re-analysis of the deposited data

How the results depend on the processing

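Of 150 values under other settings, 112 stayed within the reported value's 95% interval (binomial over windows for shares, counting for reads) or, for numbers of breaks, within 1.5 times. Another 35 moved, 2 no longer excluded a ratio of 1, and 1 turned in direction. Some of the 112 could not have changed, so their number does not measure robustness. A share of 0% stays at 0% under a stricter threshold. An island wholly inside a cluster gives the same density when taken whole, and the median fold of 1 island is its own fold. With a false discovery rate of 1e-10 or less, gamma in Pfeiffer was covered to 24.7% with 1 break and a fold of 1.86, and alpha in WSU-DLCL2, beta in WSU-DLCL2 and KARPAS-422 and gamma in KARPAS-422 fell to 0%, with 1 break in beta in both lines. The flanks then had 67.6%, 55.6% and 53.1%. With a fold of at least 2 all clusters stood at 0% with 1 break each, and the flanks at 0.398%, 15.2% and 13.4%, so in Pfeiffer this threshold left almost no contrast. Flanks of 7 Mb in place of 3 Mb were covered to 57.2%, 49.2% and 42.7%, and the ratio of gamma to them in Pfeiffer turned from 0.971 to 1.08. In WSU-DLCL2 the ratios to these flanks were 0.777 for alpha and 0.896 for gamma, with intervals that held 1, and that of beta went from 0.920 to 1.00. With islands under 5 kb apart joined the flanks had 60.4% in WSU-DLCL2 and 60.2% in KARPAS-422. Bounds extended by 10 kb gave 2 breaks in alpha in WSU-DLCL2 and 2 in gamma in KARPAS-422. The median of the authors' folds in gamma in Pfeiffer was 1.43, below the pooled 1.69. Where no island was left, no fold or density could be given. No paired analysis was possible because each line had 1 library and the labels give no replicate numbers.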
